A study of Mus musculus with 13 samples.

Results

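Glycolysis and the tricarboxylic acid cycle were followed through 37 named genes of energy metabolism in the mouse hippocampus. They comprised 15 genes of glycolysis, 2 lactate dehydrogenase genes, 5 genes of the pyruvate dehydrogenase complex and 15 genes listed with the cycle. A gene was measured where the array annotation gives a probe set to it alone, and where several did, the one with the highest mean over the 13 arrays was used. This gave 34 of the 37 genes, out of 19938 genes measured in this way. Gpi1 and Eno1 have no probe set of their own in the annotation, and Gapdh is listed only in 25 probe sets that are given to other genes as well.

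The arrays profiled total RNA of whole hippocampus from C57BL/6J mice of 1 to 2 months, fed standard chow. Wild-type mice (Kmt2d+/+) were compared with heterozygous mice of the genotype Kmt2d+/Bgeo, which the labels call Kabuki. Experiment 1 held samples of 4 wild-type and 3 heterozygous mice without injections, taking each array as a mouse of its own. Experiment 2 held 3 wild-type and 3 heterozygous mice that were given saline injections 3 times a day, as vehicle controls of another study. The labels also give RNA extraction with RNeasy in experiment 1 and with TRIzol and a spin-column clean-up in experiment 2, so injections and extraction cannot be told apart. The mice were female by their labels, and for wild-type replicate 3 of experiment 1 the label leaves the sex unknown. The sex-linked gene Xist had the largest residual SD within groups of all 19938 genes, 1.81 log2 units against a median of 0.14. The labelled sex was not checked further. Idh3g, Pdha1 and Pgk1 lie on the X chromosome, and the part of sex in their values was not tested. Kmt2d encodes a methyltransferase of histone H3, and the Bgeo allele carries an inserted reporter and selection cassette in the germ line, hence in all cell types of the tissue.

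Glycolysis splits glucose in the cytosol into pyruvate, with a small yield of ATP and NADH. Lactate dehydrogenase interconverts pyruvate and lactate, and the pyruvate dehydrogenase complex of the mitochondrion turns pyruvate into acetyl-CoA, which the cycle oxidises to feed the respiratory chain. In the brain, neurons depend strongly on this oxidation, while astrocytes are known for glycolysis and lactate release.

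Promoters are shown for 4 genes of the set that the results below come back to. Pfkl had the largest fall between the experiments, Suclg1 and Mdh1 the 2 largest rises, and Ldha had the lowest p by genotype in experiment 2. Each sequence is the 250 bases before the first start listed for the gene by RefSeq on GRCm38.p6, written 5′ to 3′ on the gene's strand. Capitals mark ACGTG or GCGTG on either strand, the core letters bound by hypoxia-inducible factors, which are known to act on many genes of glycolysis. Where CACGTG occurs, the motif overlaps itself on the opposite strand and is counted on both.
Pfkl, chr10:78009808-78010057, minus strand: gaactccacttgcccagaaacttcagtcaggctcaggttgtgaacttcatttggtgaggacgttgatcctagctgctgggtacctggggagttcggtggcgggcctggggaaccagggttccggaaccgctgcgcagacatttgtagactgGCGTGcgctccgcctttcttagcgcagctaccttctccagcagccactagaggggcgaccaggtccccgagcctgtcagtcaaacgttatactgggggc
Ldha, chr7:46845554-46845803, plus strand: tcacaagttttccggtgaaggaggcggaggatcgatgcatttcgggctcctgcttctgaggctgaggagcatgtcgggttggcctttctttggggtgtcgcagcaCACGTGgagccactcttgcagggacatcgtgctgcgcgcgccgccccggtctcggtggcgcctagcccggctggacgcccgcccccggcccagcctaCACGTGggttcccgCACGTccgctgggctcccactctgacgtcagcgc
Suclg1, chr6:73248255-73248504, plus strand: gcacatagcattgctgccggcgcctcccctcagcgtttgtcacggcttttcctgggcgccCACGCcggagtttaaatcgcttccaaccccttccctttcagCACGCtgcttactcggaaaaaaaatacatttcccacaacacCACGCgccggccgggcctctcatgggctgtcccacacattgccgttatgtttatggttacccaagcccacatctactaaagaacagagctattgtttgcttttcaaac
Mdh1, chr11:21571935-21572184, minus strand: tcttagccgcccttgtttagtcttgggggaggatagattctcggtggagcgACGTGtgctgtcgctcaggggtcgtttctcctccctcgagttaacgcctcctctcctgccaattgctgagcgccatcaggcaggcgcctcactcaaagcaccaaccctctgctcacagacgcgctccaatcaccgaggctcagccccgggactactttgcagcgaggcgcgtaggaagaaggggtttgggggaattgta
The Ldha promoter held 5 matches, Suclg1 held 3, and Pfkl and Mdh1 held 1 each, so both directions of difference occur with the motif present, while Dld, also among the 3 largest falls, held 0. Of the 36 named genes with a promoter in the table, 25 held a match in at least 1 of their promoters, or 37 of 53 promoters (69.8%). Over all 32851 promoters of this length the share was 38.6%, and by gene it was 41.5%. The 23 measured members with a match had a median difference of -0.32 log2 units between experiments 2 and 1, and the 10 without a match had -0.82. A match describes these letters only. The members' promoters and all promoters were not matched for GC content or for promoters per gene, so no enrichment is concluded from these shares.

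The deposited values are log2 intensities, so a difference of 1 unit is a doubling of signal, and a probe set's level cannot be set against that of another. The array medians lay between 6.74 and 6.90 in experiment 1 and between 7.04 and 7.08 in experiment 2. Kmt2d was read by 2 probe sets. Probe set 10432294 was lower in heterozygous mice without overlap, at 7.17 to 7.47 against 7.87 to 7.90 in experiment 1 and at 7.88 to 8.18 against 8.32 to 8.76 in experiment 2. Probe set 10432298 differed by 0.09 and 0.06 in the other direction. Wild-type replicate 2 of experiment 1 stood apart, with a mean of 8 striatum markers 2.36 log2 units above their average over the 13 arrays, against -0.42 to -0.08 on the other arrays. It was the lowest array of experiment 1 for 26 of the 34 members. Heterozygous replicate 3 of experiment 2 was the lowest array of its experiment for 13 members and the highest for 7.

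No member passed the test for a genotype difference, in either experiment, over both, or in the difference between the experiments' genotype effects. Over both experiments the heterozygous minus wild-type differences lay between -0.11 (Aldoc) and 0.14 (Pdhb) log2 units. The members of lowest p were found in the injected mice of experiment 2, namely Ldha, the lactate-forming subunit of lactate dehydrogenase, at 0.23 and Fh1, fumarase, at -0.26. All tests used limma's moderated statistics with Benjamini-Hochberg adjustment over the 19938 genes and a threshold of 0.05. Of all genes, 0% were called over both experiments, 0.0201% (4 genes, all lower) in experiment 1, 0% in experiment 2 and 0% for the difference between the experiments' effects. At an unadjusted p under 0.05, limma gave 0 of 34 members over both experiments against 5.25% of all genes, and 0 in experiment 1 against 3.5%. It gave 2 in experiment 2 (Ldha and Fh1) against 10.2%, and 0 for the difference of the effects against 6.53%. Exact permutation of genotype within the experiments gave an unadjusted p under 0.05 over both experiments for 1 of the 34 members, Eno2. It was run on the members only, so no share of all genes stands beside this count and nothing is concluded from it.

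The 95% intervals of the genotype differences give the sizes that these mice leave possible. Over both experiments, the lowest limit among the 34 members was -0.29 (Aldoc) and the highest 0.39 (Idh1), so every interval lay within 1.31-fold either way. In experiment 1 the limits were -0.39 (Suclg2) and 0.35 (Pdhb), within 1.31-fold. In experiment 2 they were -0.49 (Fh1) and 0.67 (Idh1), within 1.59-fold. A p above the threshold does not show that the genotypes were equal within these limits.

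**Figure D1:**
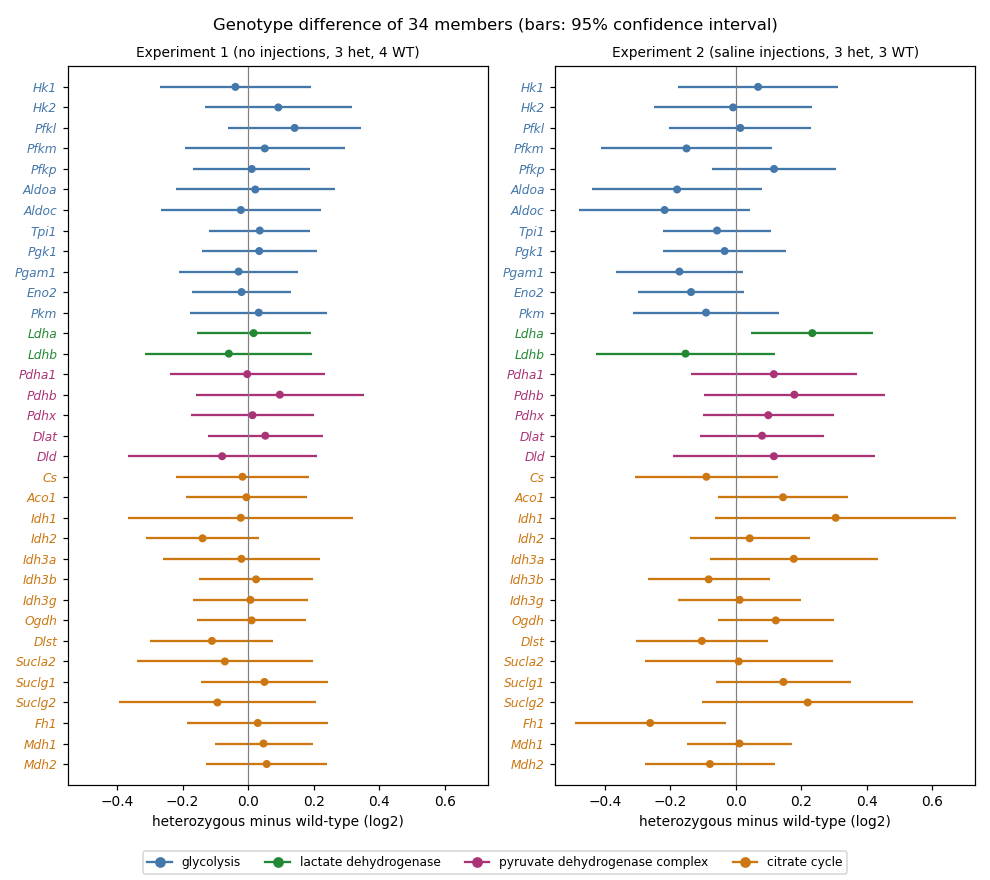
Heterozygous minus wild-type difference of each of the 34 members in log2 units, with 95% confidence intervals, in experiment 1 (left) and experiment 2 (right), coloured by pathway group. The intervals cross 0 for every member in experiment 1, and in experiment 2 they leave 0 aside for Ldha (above) and Fh1 (below), neither of which passed the adjusted threshold.

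By pathway group, the genotype differences lay on both sides of 0. Over both experiments, 5 of 12 glycolysis genes, 1 of 2 lactate dehydrogenase genes, 5 of 5 genes of the pyruvate dehydrogenase complex and 8 of 15 cycle genes were above 0, against 51% of all genes. The 5 pyruvate dehydrogenase differences ran from 0.01 to 0.14, with a median of 0.05. In experiment 1 Dld (-0.08) and Pdha1 (-0.003) of this complex were below 0 and its other genes above. In experiment 2 all 5 were above 0, from 0.08 (Dlat) to 0.18 (Pdhb). Wild-type replicate 2 was the lowest array of experiment 2 for Dlat, Pdha1 and Pdhb. The median was -0.02 for glycolysis and 0.01 for the cycle, against 0.0023 for all genes. In experiment 2 the glycolysis genes were above 0 in 3 of 12 cases, with a median of -0.07, against 47% and -0.01 for all genes. In experiment 1 they were above 0 in 8 of 12 cases, with a median of 0.03, against 57.5% and 0.02. The cycle genes were above 0 in 7 of 15 cases in experiment 1 and in 10 of 15 in experiment 2.

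The mean of the glycolysis genes on each array, relative to each gene's average over all arrays, overlapped between the genotypes within each experiment. It was 0.24 ± 0.07 (SD, n = 4) in wild-type and 0.27 ± 0.0047 (SD, n = 3) in heterozygous mice of experiment 1. In experiment 2 it was -0.26 ± 0.02 (SD, n = 3) and -0.33 ± 0.10 (SD, n = 3). The last group was spread by replicate 3, at -0.44, against -0.28 and -0.26 on the other arrays of that group. For the cycle, wild-type mice had 0.23 ± 0.10 in experiment 1 and -0.28 ± 0.03 in experiment 2, and heterozygous mice had 0.21 ± 0.03 and -0.24 ± 0.04.

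Between the experiments, most of the pathway was lower in experiment 2. Over both genotypes, 24 of 34 members fell, 3 rose (Suclg1, Mdh1 and Pdhx) and 7 were not called, with a median of -0.51 against 0.07 for all genes. The difference was not shared by all genes of an enzyme: Suclg1 rose while Sucla2 and Suclg2 fell, and Mdh1 rose while Mdh2 was not called. Pfkl, Idh1 and Dld fell most, by 1.67, 1.61 and 1.43 log2 units. Across all genes 77.2% were called, 41.8% higher and 35.4% lower. In 23 members all 6 arrays of experiment 2 lay below all 7 of experiment 1, against 27.5% of all genes, and in 2 members (Suclg1 and Mdh1) they lay above, against 25.4%. In wild-type mice alone 24 members fell and 3 rose, against 32% and 37.3% of all genes, and in heterozygous mice alone 23 fell and 3 rose, against 31.3% and 31%.

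The split into higher and lower calls depends on the scaling of the arrays. After quantile normalisation of the deposited values, 19 members were lower and 9 higher, against 30.4% and 34.8% of all genes, and the share higher among those called went from 11.1% to 32.1%. The members' median moved from -0.51 to -0.25. With the deposited values, with arrays centred on their median and after quantile normalisation alike, 18 members were called lower and 3 higher. Under quantile normalisation the difference of Pfkp, Tpi1, Aco1, Idh2 and Idh3g changed sign and was not called, Pgk1 was not called, and Aldoa and Mdh2 changed sign and were called higher. Hk1, Ldhb, Pdhb and Ogdh, not called as deposited, were called higher, and Hk2 lower. By group, 9 of 12 glycolysis genes fell and 0 rose as deposited, against 7 and 2 after quantile normalisation. In the cycle 11 of 15 fell and 2 rose, against 8 and 4, and in the pyruvate dehydrogenase complex 3 of 5 fell and 1 rose, against 3 and 2.

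The difference between the experiments also varied with the signal of a probe set. Among all genes its median was between 0.19 and 0.35 in the 4 dimmest deciles and -0.42 in the brightest, where 67.3% of genes were called lower. Of the 34 members, 29 lay in the brightest 2 deciles (8 and 21), and 22 of these were called lower. After quantile normalisation the median of the brightest decile was -0.06, and 42.5% of its genes were called lower against 34.5% higher. The part of signal level in the members' difference was not tested.

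**Figure D2:**
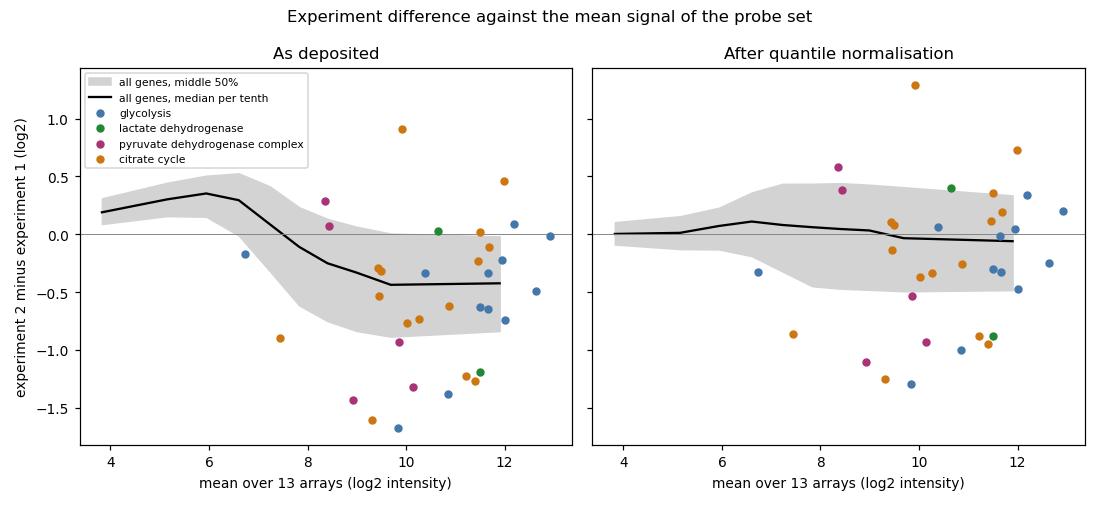
Experiment 2 minus experiment 1 (log2) against the mean signal of the probe set over 13 arrays (log2 intensity) for the 34 members, as deposited (left) and after quantile normalisation (right). The black line is the median of all genes per decile of signal and the grey band its middle 50%. The line runs from 0.19 in the dimmest decile through 0.35 in the third to -0.42 in the brightest as deposited and stays between -0.06 and 0.11 after normalisation, and most members lie in the brightest 2 deciles.

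**Figure D3:**
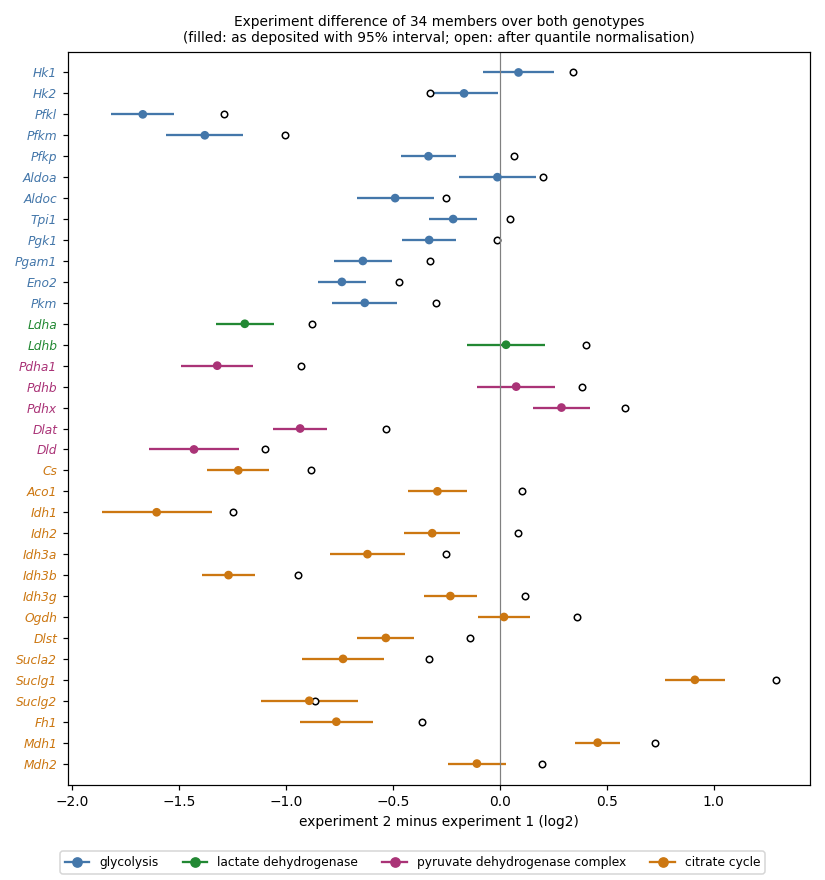
Experiment 2 minus experiment 1 over both genotypes (log2) for each of the 34 members, as deposited with 95% confidence intervals (filled) and after quantile normalisation (open). Pfkl, Idh1 and Dld lie farthest to the left, Suclg1 farthest to the right, and the normalised points lie to the right of the deposited ones for every member except Hk2.

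The first step of glycolysis, the phosphorylation of glucose, is carried by hexokinases. Hk1, the main hexokinase of brain, was read by a probe set at 12.16, 12.13, 12.16 and 12.18 on the 4 wild-type arrays of experiment 1 and at 12.08, 12.12 and 12.16 on the heterozygous arrays. In experiment 2 it stood at 12.03, 12.48 and 12.08 and at 12.16, 12.15 and 12.48. The groups overlapped, and the difference between the experiments was 0.09 (SE 0.08, adjusted p = 0.314, limma). This probe set rests on 1 sequence record, which 16 shared probe sets also hold, all 16 of them given to Rpl17 as well. The other Hk1 probe set, with 8 records, fell by 1.26 between the experiments, from group means of 11.23 and 11.27 to 9.99 and 9.99, so the direction for Hk1 depends on the probe set. Hk2, the insulin-responsive form, was at 6.79, 6.73, 6.75 and 6.79 in wild-type and at 6.99, 6.83 and 6.75 in heterozygous mice of experiment 1. Its values in experiment 2 were 6.72, 6.44 and 6.78, and 6.86, 6.58 and 6.47. Its genotype difference in experiment 1 was 0.09 (95% interval -0.13 to 0.32, adjusted p = 1, limma), with overlapping groups, and it was 0.03 without heterozygous replicate 1 of that experiment.

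Phosphofructokinase commits sugar to glycolysis, and its 3 genes encode the liver (Pfkl), muscle (Pfkm) and platelet (Pfkp) subunits. Pfkl was at 10.58, 10.38, 10.58 and 10.63 in wild-type mice of experiment 1 and at 10.75, 10.61 and 10.70 in heterozygous mice. In experiment 2 it was at 9.05, 8.82 and 8.93 and at 8.87, 9.13 and 8.84. No array of experiment 2 reached experiment 1, a 3.18-fold fall (SE 0.07 log2 units, adjusted p = 3.26e-12, limma). Its genotype difference in experiment 1 was 0.14 (95% interval -0.06 to 0.34, adjusted p = 1, limma), with 1 heterozygous array inside the wild-type range, and it was 0.09 without wild-type replicate 2. Pfkm ran at 11.59, 11.26, 11.54 and 11.48 against 11.51, 11.56 and 11.48 in experiment 1, and at 10.20, 10.22 and 10.13 against 10.30, 10.06 and 9.74 in experiment 2. The muscle subunit thus fell by 1.38 (SE 0.09, adjusted p = 3.41e-10), and the heterozygous arrays of experiment 2 were its most scattered group. Pfkp fell by 0.33 as deposited (adjusted p = 0.000108), which turned to 0.07 after quantile normalisation.

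Aldolase cleaves the doubly phosphorylated sugar. Aldoc, the brain form and an astrocyte marker, stood at 12.99, 12.71, 12.91 and 12.90 against 12.88, 12.89 and 12.80 in experiment 1. In experiment 2 it stood at 12.47, 12.46 and 12.50 in wild-type and at 12.37, 12.50 and 11.91 in heterozygous mice. The genotype difference there was -0.22 (95% interval -0.48 to 0.04, adjusted p = 0.555), and without replicate 3 of the heterozygous group it was -0.04. Aldoc fell by 0.49 between the experiments as deposited (adjusted p = 6.81e-05) and by 0.25 after quantile normalisation, while Aldoa, the general form, differed by -0.01 (adjusted p = 0.901). That near-zero value of Aldoa changed sign with centred arrays (0.08) and after quantile normalisation (0.20). Tpi1, which interconverts the 2 sugar phosphates that aldolase releases, fell by 0.22 as deposited (adjusted p = 0.00127) and was at 0.05 after quantile normalisation.

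Gapdh, which makes the NADH of glycolysis, could be read only in the 25 shared probe sets, whose means over the arrays lay between 12.94 and 13.52. Their median difference was 0.02 between the genotypes in experiment 1, -0.10 in experiment 2 and 0.01 between the experiments. These values may hold signal of the other genes listed. Pgk1, which yields the first ATP, fell by 0.33 as deposited (adjusted p = 9.38e-05) and was at -0.02 after quantile normalisation.

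Phosphoglycerate mutase and enolase prepare the last energy-rich intermediate. Pgam1 stood at 12.05, 11.84, 11.92 and 12.12 against 11.93, 12.02 and 11.90 in experiment 1. In experiment 2 the wild-type arrays read 11.34, 11.53 and 11.35 and the heterozygous arrays 11.21, 11.22 and 11.28. All 3 heterozygous values lay below the wild-type ones there, a difference of -0.17 (95% interval -0.37 to 0.02, adjusted p = 0.533, limma), or -0.11 without wild-type replicate 2. Over both experiments it was -0.10 (SE 0.06, adjusted p = 0.934, limma; exact permutation p = 0.0986), or -0.06 without that array. The other Pgam1 probe sets gave the same values as each other, with a genotype difference of -0.06 in experiment 2 (exact permutation p = 0.3). The genotypes overlapped there, so the separation of Pgam1 depends on the probe set. Eno2, the neuronal enolase, stood at 12.40, 12.42, 12.36 and 12.30 against 12.37, 12.28 and 12.39 in experiment 1, and at 11.66, 11.68 and 11.71 against 11.55, 11.61 and 11.48 in experiment 2. Its heterozygous values in experiment 2 again lay below the wild-type values, with a difference of -0.14 (95% interval -0.30 to 0.03, adjusted p = 0.549, limma). Over both experiments the Eno2 difference was -0.07 (SE 0.05, adjusted p = 0.934, limma), with an exact permutation p of 0.0443 before adjustment. Between the experiments Pgam1 fell by 0.64 and Eno2 by 0.74 (adjusted p = 1.23e-07 and 2.12e-09), each with no overlap, and after quantile normalisation by 0.33 and 0.47.

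Members whose genotypes did not overlap were few in both experiments. In experiment 1 only Mdh1 separated, upward in heterozygous mice, against 4.47% of all genes upward and 7.22% in either direction. In experiment 2 Ldha separated upward and Pgam1 and Eno2 downward, against 4.32% of all genes upward, 5.17% downward and 9.48% in either direction. With 3 against 3 mice, the smallest exact permutation p is 0.1, which these 3 genes reached. Pgam1 separated only in its chosen probe set. No member separated in both experiments.

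Pkm, the pyruvate kinase of brain, closes glycolysis. It stood at 11.83, 11.70, 11.75 and 11.85 against 11.82, 11.83 and 11.79 in experiment 1, and at 11.15, 11.36 and 11.11 against 11.27, 11.21 and 10.87 in experiment 2. The fall of 0.63 (SE 0.07, adjusted p = 6.22e-07) had no overlap. It was 0.30 after quantile normalisation, and 0.26 as deposited in the other Pkm probe set.

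Ldha and Ldhb encode the lactate dehydrogenase subunits known to favour lactate formation and lactate use, respectively. Ldha stood at 12.08, 11.95, 12.06 and 12.10 in wild-type and at 12.12, 12.06 and 12.01 in heterozygous mice of experiment 1, with the genotypes intermixed. In experiment 2 it stood at 10.77, 10.83 and 10.66 in wild-type and at 10.87, 10.97 and 11.12 in heterozygous mice, each heterozygous array above each wild-type array. The difference there was 0.23 (SE 0.09, 95% interval 0.05 to 0.42, 1.18-fold), with an unadjusted p of 0.0173 and an adjusted p of 0.406 in limma. Leaving out arrays moved it between 0.17 (without heterozygous replicate 3) and 0.29 (without heterozygous replicate 1). Over both experiments it was 0.12 (SE 0.06, adjusted p = 0.934, limma; exact permutation p = 0.0629), or 0.08 without heterozygous replicate 3 of experiment 2. The difference between the 2 experiments' genotype effects was 0.22 (95% interval -0.04 to 0.47, adjusted p = 0.769). Relative to experiment 1, Ldha fell 2.29-fold (adjusted p = 6.56e-11).

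Ldhb stood at 10.69, 10.53, 10.88 and 10.57 against 10.58, 10.63 and 10.63 in experiment 1, and at 10.46, 10.73 and 11.03 against 10.62, 10.68 and 10.46 in experiment 2. All groups overlapped, and the experiments differed by 0.03 (SE 0.09, adjusted p = 0.769). The direction of Ldhb was not settled, since its other probe set fell by 0.51 and the quantile-normalised value of the first was 0.40. With the probe sets chosen by signal, Ldha was among the members that fell and Ldhb among those not called.

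**Figure D4:**
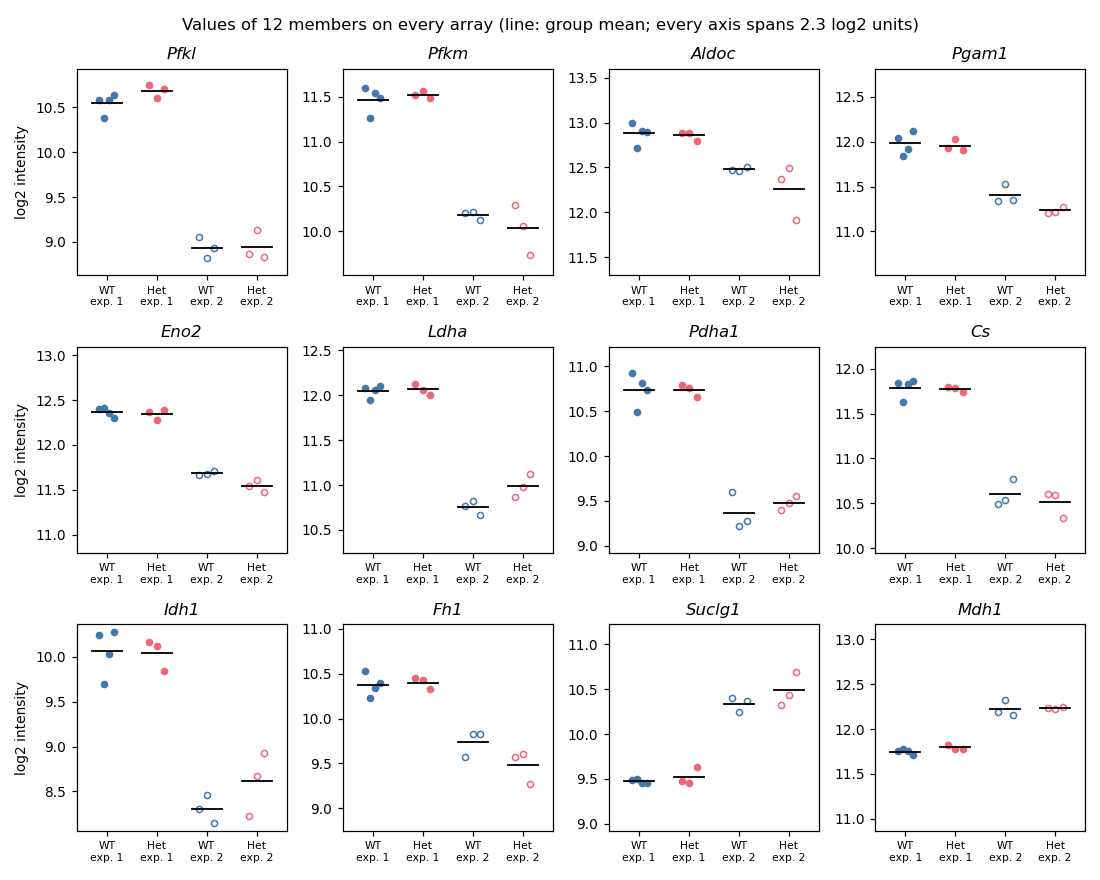
Log2 intensity of 12 members on every array, in wild-type (WT, blue) and heterozygous (Het, red) mice of experiment 1 (exp. 1, filled) and experiment 2 (exp. 2, open), with the group mean as a line. Every axis spans the same number of log2 units. Ldha is higher and Eno2 and Pgam1 lower on each heterozygous array of experiment 2 than on the wild-type arrays of that experiment. In each gene shown, no array of experiment 2 lies within the range of experiment 1.

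The pyruvate dehydrogenase complex holds a dehydrogenase of α (Pdha1) and β (Pdhb) subunits and a dihydrolipoyl transacetylase (Dlat). It also holds a binding protein (Pdhx) and a dihydrolipoyl dehydrogenase (Dld) that the oxoglutarate complex shares. Pdha1 stood at 10.93, 10.49, 10.82 and 10.74 against 10.79, 10.76 and 10.66 in experiment 1, and at 9.60, 9.22 and 9.27 against 9.40, 9.48 and 9.56 in experiment 2. Its fall of 1.32 (SE 0.08, adjusted p = 2.81e-10) had no overlap. Pdhb, whose product pairs with that of Pdha1, stood at 8.41, 8.15, 8.42 and 8.42 against 8.46, 8.39 and 8.49, and then at 8.69, 8.10 and 8.37 against 8.58, 8.70 and 8.42. The experiments overlapped for Pdhb, with a difference of 0.08 (SE 0.09, adjusted p = 0.43). Its genotype difference over both experiments was 0.14 (95% interval -0.05 to 0.32, adjusted p = 0.934, limma), or 0.07 without wild-type replicate 2 of experiment 2. In experiment 1 it was 0.10 (adjusted p = 1), or 0.03 without wild-type replicate 2.

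Dld fell by 1.43 (SE 0.10, adjusted p = 1.5e-09), from 9.70, 9.33, 9.91 and 9.54 in wild-type and 9.60, 9.48 and 9.55 in heterozygous mice to 8.25, 8.01 and 8.03 and to 7.92, 8.46 and 8.26. Every array of experiment 2 was below every array of experiment 1. Pdhx went the opposite way, from 8.20, 8.25, 8.27 and 8.16 and from 8.30, 8.23 and 8.17 to 8.66, 8.46 and 8.28 and to 8.55, 8.57 and 8.57. It rose by 0.29 as deposited (SE 0.06, adjusted p = 0.000601) and by 0.59 after quantile normalisation, with 1 wild-type array of experiment 2 inside the range of experiment 1. Dlat fell by 0.93 as deposited (adjusted p = 4.61e-10) and by 0.53 after quantile normalisation. The subunits of the complex thus ran from a 2.7-fold fall (Dld) to a 1.22-fold rise (Pdhx).

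Citrate synthase (Cs) opens the cycle by joining acetyl-CoA to oxaloacetate. Cs stood at 11.84, 11.62, 11.83 and 11.86 against 11.80, 11.78 and 11.74 in experiment 1, and at 10.49, 10.53 and 10.77 against 10.60, 10.60 and 10.33 in experiment 2. Its fall of 1.22 (2.34-fold, adjusted p = 1.1e-10) had no overlap. Aco1, the cytosolic aconitase that also acts as an iron-regulatory protein, fell by 0.29 as deposited (adjusted p = 0.000616) and was at 0.10 after quantile normalisation. Wild-type replicate 2 of experiment 1 lay inside the range of experiment 2 for this gene.

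The isocitrate dehydrogenases are an NAD-dependent mitochondrial enzyme of 3 subunits (Idh3a, Idh3b and Idh3g), which belongs to the cycle, and the NADP-dependent Idh1 of the cytosol and Idh2 of the mitochondrion. Idh3a, the catalytic subunit, stood at 11.34, 10.92, 11.22 and 11.18 against 11.21, 11.16 and 11.07 in experiment 1. In experiment 2 it stood at 10.67, 10.38 and 10.31 against 10.51, 10.79 and 10.60. It fell by 0.62 as deposited (SE 0.08, adjusted p = 4.58e-06) and by 0.25 after quantile normalisation (adjusted p = 0.0106, limma). Idh3b fell by 1.27 (adjusted p = 1.3e-11), and Idh3g by 0.23 as deposited (adjusted p = 0.00197), which turned to 0.11 after quantile normalisation. The difference between the 2 experiments' genotype effects on Idh3a was 0.20 (95% interval -0.15 to 0.55, adjusted p = 0.819, limma). It ranged from 0.12 without heterozygous replicate 2 to 0.31 without wild-type replicate 1, both of experiment 2.

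Idh1 stood at 10.25, 9.70, 10.04 and 10.27 against 10.17, 10.12 and 9.84 in experiment 1, and at 8.31, 8.46 and 8.15 against 8.23, 8.68 and 8.93 in experiment 2. The fall of 1.61 (SE 0.12, 3.04-fold, adjusted p = 4.43e-09) had no overlap, and Idh1 had the largest residual SD of the members, 0.25. Its genotype difference in experiment 2 was 0.31 (95% interval -0.06 to 0.67, adjusted p = 0.555), with overlapping groups. It was 0.15 without heterozygous replicate 3 and 0.50 without heterozygous replicate 1. Idh2 stood at 9.69, 9.56, 9.81 and 9.77 against 9.56, 9.58 and 9.56 in experiment 1, and at 9.29, 9.25 and 9.37 against 9.38, 9.42 and 9.24 in experiment 2. The genotype difference of Idh2 in experiment 1 was -0.14 (95% interval -0.31 to 0.03, adjusted p = 1), the lowest unadjusted p of the members there, at 0.104. Between the experiments Idh2 fell by 0.32 as deposited (adjusted p = 0.000201), and after quantile normalisation the sign turned, at 0.08 and not called.

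The oxoglutarate dehydrogenase complex makes succinyl-CoA. Dlst, its transsuccinylase, stood at 9.80, 9.56, 9.85 and 9.79 against 9.65, 9.67 and 9.59 in experiment 1, and at 9.10, 9.21 and 9.33 against 9.02, 9.11 and 9.20 in experiment 2. The heterozygous group lay lower on average in both experiments but overlapped the wild-type group in each. Its genotype difference over both was -0.11 (95% interval -0.24 to 0.03, adjusted p = 0.934, limma; exact permutation p = 0.0814). Dlst fell by 0.53 between the experiments as deposited (adjusted p = 9.68e-07) and by 0.14 after quantile normalisation (adjusted p = 0.0488, limma), while Ogdh, the first enzyme of the complex, differed by 0.02 (SE 0.06, adjusted p = 0.771).

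Succinyl-CoA ligase pairs an α subunit (Suclg1) with a β subunit that sets whether ATP (Sucla2) or GTP (Suclg2) is made. Suclg1 stood at 9.49, 9.50, 9.45 and 9.45 against 9.48, 9.45 and 9.64 in experiment 1, and at 10.40, 10.25 and 10.37 against 10.33, 10.44 and 10.69 in experiment 2. It rose by 0.91 (SE 0.07, 1.88-fold, adjusted p = 2.3e-09), the largest rise in the set, with every array of experiment 2 above experiment 1. Its genotype difference over both experiments was 0.09 (95% interval -0.04 to 0.23, adjusted p = 0.934, limma), or 0.05 without heterozygous replicate 3 of experiment 2. Suclg2 went the other way, from 8.06, 7.53, 8.11 and 7.84 against 7.95, 7.75 and 7.68 to 7.05, 6.92 and 6.57 against 6.97, 7.01 and 7.23. It fell by 0.89 (SE 0.11, adjusted p = 1.3e-06), and Sucla2 by 0.73 (adjusted p = 1.55e-06), or by 0.33 after quantile normalisation. The α subunit and both β subunits therefore moved in opposite directions with the deposited values, with centred arrays and after quantile normalisation. For Suclg2 the difference between the genotype effects was 0.31 (95% interval -0.13 to 0.75, adjusted p = 0.779), and it ranged from 0.17 without wild-type replicate 3 of experiment 2 to 0.43 without wild-type replicate 2 of experiment 1. The other Suclg2 probe set gave -0.08, so the sign depends on the probe set. Its genotype difference in experiment 2 was -0.15, against 0.22 in the chosen one.

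Fh1, fumarase, stood at 10.52, 10.23, 10.34 and 10.39 against 10.45, 10.42 and 10.33 in experiment 1, and at 9.57, 9.83 and 9.82 against 9.57, 9.60 and 9.27 in experiment 2. Its heterozygous group in experiment 2 differed by -0.26 (SE 0.11, 95% interval -0.49 to -0.03), with an unadjusted p of 0.029 and an adjusted p of 0.436 in limma. The groups overlapped, since a wild-type array lay at the level of the heterozygous ones, and the value was -0.16 without heterozygous replicate 3. The difference between the genotype effects was -0.29 (95% interval -0.61 to 0.03, adjusted p = 0.769), or -0.19 without heterozygous replicate 3 of experiment 2. Between the experiments Fh1 fell by 0.77 as deposited (adjusted p = 2.64e-07) and by 0.37 after quantile normalisation.

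Malate dehydrogenase returns oxaloacetate in the mitochondrion (Mdh2), and its cytosolic form (Mdh1) serves the malate-aspartate shuttle. Mdh1 stood at 11.76, 11.78, 11.75 and 11.71 against 11.83, 11.78 and 11.78 in experiment 1, and at 12.19, 12.33 and 12.16 against 12.23, 12.23 and 12.24 in experiment 2. It rose by 0.46 (SE 0.05, 1.37-fold, adjusted p = 4.4e-07) with no overlap, and by 0.73 after quantile normalisation. Its genotype difference in experiment 1 was 0.05 (95% interval -0.10 to 0.20, adjusted p = 1), although the 2 groups did not overlap. Mdh2 stood at 11.70, 11.64, 11.78 and 11.72 against 11.79, 11.73 and 11.79, and then at 11.57, 11.72 and 11.72 against 11.72, 11.65 and 11.39. The experiments overlapped for Mdh2, at -0.11 (SE 0.06, adjusted p = 0.133), a difference that became 0.20 after quantile normalisation.

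Genes around the pathway gave no genotype call in any of 7 lists over both experiments, where 0% of all genes were called. Between the experiments 62 of their 74 measured genes (83.8%) were called, against 77.2% of all genes. Among the genes of lowest unadjusted p over both experiments were Me1, the cytosolic malic enzyme, at 0.17 (SE 0.06, adjusted p = 0.826), and Mpc1, a subunit of the mitochondrial pyruvate carrier, at -0.19 (SE 0.07, adjusted p = 0.826), both by limma. Pgam2, the muscle mutase, was at -0.21 (SE 0.08, adjusted p = 0.848, limma). Of the 74 genes, only Me1, Mpc1 and Pgam2 had an unadjusted p under 0.05 in limma, against 5.25% of all genes. The other genes named by the same rule had unadjusted p above 0.05 in limma: Me2 (-0.14), Slc2a1 (-0.12), Pygl (-0.10), Pygb (0.12), Eno3 (-0.07), Rpe (0.17), Pgd (-0.14), Slc25a11 (-0.11), Gpd2 (0.10), Pdp1 (-0.14) and Pfkfb3 (0.08). Mpc1 had group means of 11.24 and 11.09 in experiment 1 and 10.91 and 10.66 in experiment 2, wild-type first, and Me1 had 9.91 and 10.05, then 9.65 and 9.83.

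Between the experiments, 10 of 11 regulators of phosphofructokinase and pyruvate dehydrogenase fell and 0 rose, with a median of -0.69. After quantile normalisation 9 fell and 1 rose. Of all genes, 35.4% fell and 41.8% rose as deposited, and 30.4% and 34.8% after quantile normalisation. Pdk4, a kinase that shuts the dehydrogenase, fell by 1.69 (adjusted p = 6.22e-12). Of the 9 redox-shuttle genes, 8 fell and 1 rose, or 7 and 1 after quantile normalisation. They included a fall of 1.27 in the aspartate-glutamate carrier Slc25a12 (adjusted p = 2.95e-12) and a rise of 1.12 in the dicarboxylate carrier Slc25a10 (adjusted p = 1.58e-08). Among 9 carriers of glucose, lactate and pyruvate 6 fell and 2 rose, or 3 and 2 after quantile normalisation. Slc2a1, the glucose transporter of the blood-brain barrier and glia, fell by 1.24 (adjusted p = 1.81e-09), and Slc2a8 rose by 0.58 (adjusted p = 2.58e-05).

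Among 13 other enzymes at the cycle 8 fell and 4 rose, or 6 and 6 after quantile normalisation, with a median of -0.24 that became 0.13. Glud1, glutamate dehydrogenase, fell by 1.91 (adjusted p = 5.03e-12), and Sdhb, the iron-sulphur subunit of succinate dehydrogenase, rose by 0.78 (adjusted p = 6.34e-08). In the pentose phosphate branch 5 of 7 fell and 2 rose, or 3 and 2 after quantile normalisation. Rpe, ribulose-phosphate epimerase, was at -1.64 and Taldo1, transaldolase, at 1.36 as deposited (adjusted p = 5.77e-09 and 1.26e-09, limma). In glycogen turnover 3 of 9 fell and 1 rose, or 4 and 4 after quantile normalisation. The branching enzyme Gbe1 was at -1.98 and Ugp2, which makes the sugar donor, at 0.39 as deposited (adjusted p = 1.15e-10 and 2.29e-05, limma). The 16 other enzymes of glycolysis and gluconeogenesis went the opposite way to the members: 10 rose and 2 fell, with a median of 0.25. After quantile normalisation 7 rose and 2 fell, with a median of 0.15. Bpgm rose by 0.67 (adjusted p = 1.31e-07) and Adpgk fell by 0.72 (adjusted p = 1.43e-07). These 16 genes had low signals, with list means between 6.60 and 6.95 on the 13 arrays, and the part of signal level in their difference was not tested.

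Of 122 markers of cell types, 87 (71.3%) were called between the experiments, 65 lower and 22 higher, against 77.2% of all genes. After quantile normalisation 80 were called, 49 lower and 31 higher. Of 10 neuronal markers 7 were lower and 2 higher in experiment 2 (median -0.70), and of 10 astrocyte markers 9 were lower and 1 higher (median -0.68). The mean neuronal marker signal lay between 11.77 and 11.81 on the arrays of experiment 1 and between 11.29 and 11.42 in experiment 2. For the astrocyte markers it lay between 10.49 and 10.75 and between 9.94 and 10.12. Dentate granule cell markers were lower in 7 of 10 cases, CA1 markers in 4 of 5, CA3 and CA2 markers in 6 of 9 with 1 higher, endothelial markers in 7 of 8 with 1 higher, and choroid plexus markers in 4 of 10. Lower and higher counts were 4 and 2 of 8 for inhibitory neurons, 4 and 2 of 9 for oligodendrocytes, 3 and 1 of 5 for their precursors, 3 and 3 of 9 for microglia, 3 and 5 of 10 for ependymal cells, 3 and 3 of 9 for meninges, 1 and 0 of 8 for striatum, and 0 and 1 of 2 for blood. After quantile normalisation, lower and higher counts were 3 and 5 for inhibitory neurons and for microglia, and 3 and 3 for oligodendrocytes. They were 1 and 2 for precursors, 4 and 3 for ependymal cells and 3 and 4 for meninges. Lower calls stayed the more frequent for neurons (7 and 2), astrocytes (7 and 1), dentate (4 and 2) and CA1 (2 and 1). So they did for CA3 and CA2 (3 and 1), endothelium (5 and 1) and choroid plexus (4 and 0). Eno2 and Aldoc are themselves among the neuronal and astrocyte markers, and Bpgm is 1 of the 2 blood markers. In bulk tissue, fewer cells of a type and less RNA per cell cannot be told apart, and the part of cell composition in the members' differences was not tested.

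By genotype no marker of any of the 15 lists was called over both experiments. Of all genes, 57.5% were above 0 in experiment 1 and 47% in experiment 2. An unadjusted p under 0.05 in limma was found for 3.5% and 10.2% of all genes. In experiment 1 the choroid plexus markers were below 0 in 10 of 10 cases (median -0.78, 7 at an unadjusted p under 0.05 in limma), the ependymal markers in 10 of 10 (median -0.34, 8) and the striatum markers in 8 of 8 (median -0.71, 1). Dentate granule cell markers were above 0 in 10 of 10 cases (median 0.39, 3). The oligodendrocyte and myelin markers were below 0 in 9 of 9 cases (median -0.25). In experiment 2 the choroid plexus markers were above 0 in 10 of 10 cases (median 0.38, 0). The ependymal markers were above 0 there in 7 of 10 cases (median 0.14). Of the oligodendrocyte and myelin markers 8 of 9 were above 0 there (median 0.19, or -0.02 without wild-type replicate 1 of experiment 2). Without wild-type replicate 2 of experiment 1, the striatum markers were below 0 in 5 of 8 cases with a median of -0.14, the dentate median was 0.11 and the choroid plexus median -1.16. In experiment 2 the choroid plexus median was 0.09 without wild-type replicate 3 and 0.14 without heterozygous replicate 3. The neuronal median was -0.0028 in experiment 1 and -0.06 in experiment 2, and the astrocyte median 0.06 in each, or -0.01 in experiment 1 without wild-type replicate 2. The part of these tissues in the members' genotype differences was not tested.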

How the data were processed

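The deposited table holds log2 intensities for 35556 probe sets on 13 arrays, which the authors obtained by RMA (oligo package per the submitters' processing notes). For its version, the genome build and a joint or separate normalisation of the experiments, nothing is given in the sources used here. The platform annotation gives 1 gene symbol to 21789 probe sets, several to 1621 and none to 12146, and 0 per-sample columns were left unused. For each of 19938 genes the probe set with the highest mean was tested with limma 3.58.1 in R 4.3.3 (lmFit and eBayes), with no filter. Genotype and experiment were additive terms for the values over both experiments or genotypes, and a model of the 4 groups gave the rest. Adjustment was by the Benjamini-Hochberg method over all genes, two-sided, at a threshold of 0.05. The script was checked on simulated data. Exact permutation of genotype within experiments allows 700 regroupings, two-sided, with a smallest p of 0.00143 over both, 0.0286 in experiment 1 and 0.1 in experiment 2. The number of arrays limits the precision, and since the labels number the replicates without stating separate animals, p-values measure only the spread between these samples.

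The members and all lists were chosen with earlier results of these data known. Values of every array are given for the 6 members of lowest unadjusted p in each genotype comparison, the 3 largest rises and 3 largest falls from experiment 1 to 2, and Hk1, Pfkm, Pkm, Ldha, Ldhb, Pdha1, Cs, Idh3a and Mdh2. Gapdh was in the same rule but has only shared probe sets, which are summarised. From each list of neighbouring genes, up to 2 of lowest p by genotype and 1 each way between the experiments are named. Other settings covered the choice of probe set, filters on dim probe sets, scaling, weights, the variance prior, the samples in the fit, the replicate block and left-out arrays. Promoters came from RefSeq (GRCm38.p6), matched by symbol.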

Additional observations from a re-analysis of the deposited data

Results flagged for a closer look

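In 4 of the 34 members, 1 of the 4 wild-type arrays of experiment 1 lay far from the other 3, beyond Dixon's 95% critical value for a group of 4, which chance passes in about 1 group in 20. Replicate 2 was the low array in 3 of them. It read 11.6248 for Cs against 11.83 to 11.86 on the other arrays, 11.4034 for Ogdh against 11.51 to 11.52, and 8.1491 for Pdhb against 8.41 to 8.42. The same array carried the raised striatum markers. In Idh3g replicate 3 was high, at 11.632 against 11.53 on the others, 2 of which held an identical value, and the same holds for 2 of the others in Ogdh. Only this group has enough arrays for the comparison.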

How the results depend on the processing

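No member was called by genotype in any of the 25 other settings, with a smallest adjusted p of 0.129 (Ldha in experiment 2 without heterozygous replicate 1, limma), and the named genotype differences kept their direction in all 586 values. These differences were picked by lowest p and the settings reuse the same arrays, so a steady direction is no independent support. The 586 values leave out the other Suclg2 probe set taken alone, where the difference between the genotype effects was -0.08. Of the differences between experiments, 436 of 442 with 1 array left out and 317 of 338 in other settings kept direction and call. After quantile normalisation 9 members were higher over both genotypes, 8 in wild-type and 7 in heterozygous mice, against 3 each as deposited, and Pfkp (0.066), Tpi1 (0.049), Aco1 (0.105), Idh2 (0.084), Idh3g (0.115), Mdh2 (0.20) and Aldoa (0.20) changed sign. Aldoa also changed sign with centred arrays (0.081), array weights (0.029), wild-type replicates 2 and 3 of experiment 1 and heterozygous replicate 3 of experiment 2 left out (0.069; 3 arrays chosen from earlier results of these data) and single arrays left out (-0.053 to 0.076). Ogdh turned to -0.0016 without those 3 arrays, and Ldhb ranged from -0.046 to 0.088 with single arrays left out. With the mean of a gene's probe sets Hk1 was at -0.59 and Ldhb at -0.24, and Hk1 by its other probe set, a setting chosen after seeing the data, at -1.26. The cause of the remaining changes was not tested. With the replicate block 0 members were higher and 0 lower by genotype, in each experiment and over both. Deviations of same-numbered mice from their group means had correlations of -0.23 to 0.22. Differently numbered mice were not set beside them, so these values do not decide whether the numbers pair the mice. The block could not give the experiment difference.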
